A study of Mus musculus with 6 samples.

Results

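The genes described here conjugate foreign compounds and steroids in the liver, or are controlled by NRF2, and were compared between livers without p14 and control livers. The list named 44 genes: glutathione transferases, UDP-glucuronosyltransferases, sulfotransferases, redox genes of the NRF2 pathway, 3 further drug-metabolising enzymes, and NRF2 and its inhibitor KEAP1 themselves. Of these, 43 had a probe set paired with that gene alone, out of 18193 such genes on the array, and G6pdx was not analysed here. All 43 passed the filter on dim signals, which asked for 3 or more arrays with a log2 level no lower than 4 and left 10009 genes in all. The rule named the genes by family and used no measured value, but the genes were chosen with earlier results of these data known. Each gene was read from its brightest probe set, and close paralogs may share probes.

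The livers came from 3 mice with a conditional liver knockout of p14 (KO 1 to KO 3) and from 3 mice labelled p14 WT (WT 1 to WT 3). All were male C57BL/6 mice aged 6 weeks, with 1 array for each mouse. p14 is the product of Lamtor2, a subunit of the Ragulator complex on late endosomes. The promoter that drives the recombinase, and whether the controls carried floxed alleles, are not given in the sources used here. All values are log2 levels, and all differences are KO minus WT on that scale, so that a positive value means a higher signal in KO.

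Conjugation makes reactive or fat-soluble molecules fit for excretion. Glutathione transferases (GSTs) attach glutathione, UDP-glucuronosyltransferases (UGTs) attach glucuronic acid, and sulfotransferases (SULTs) attach sulfate, mostly in hepatocytes. NRF2, encoded by Nfe2l2, is a transcription factor that KEAP1 marks for degradation until oxidants or electrophiles modify KEAP1. Freed NRF2 binds antioxidant response elements with a small MAF partner and drives genes of glutathione synthesis, quinone reduction and many GSTs. Several of these enzymes differ between male and female mouse livers.

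The promoter windows that follow show where that element's core does and does not occur among members that the results turn on. RefSeq windows (GRCm38.p6) ran from 250 bases before to 50 bases after the annotated start and were present for 39 of the 44 genes. Gsta4, Gstt2, Gclc, Gsr and Nnmt had none. The letters TGACNNNGC, searched on both strands, occurred in 9 of the 39 genes (23.1%), against 3781 of the 27025 genes with a window. Counted over windows, since some genes have several starts, 9 of the members' 50 windows and 12.4% of all windows held it. The 9 were Gsta3, Gstm5, Gstm7, Mgst1, Gclm, Srxn1, Txnrd1, G6pdx and Nfe2l2. In Gclm the match read TGACGGTGC on the opposite strand, from base -134 to -126 counted from the start. It read TGACCACGC from -42 to -34 in Gstm5, and TGACTCCGC from -240 to -232 in Nfe2l2. Gsta2, Gstm3 and Nqo1 are shown for contrast, with no match in this window. Capitals mark the motif as it lies on the printed strand, and each window runs 5′ to 3′.
Gclm (chr3:122245307-122245606, plus strand): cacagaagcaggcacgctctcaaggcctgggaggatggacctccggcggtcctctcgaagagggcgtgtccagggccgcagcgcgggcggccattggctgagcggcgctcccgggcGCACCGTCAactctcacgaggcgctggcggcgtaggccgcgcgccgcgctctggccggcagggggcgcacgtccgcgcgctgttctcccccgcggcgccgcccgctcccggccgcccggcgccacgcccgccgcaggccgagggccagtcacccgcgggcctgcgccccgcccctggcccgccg
Gstm5 (chr3:107895604-107895903, plus strand): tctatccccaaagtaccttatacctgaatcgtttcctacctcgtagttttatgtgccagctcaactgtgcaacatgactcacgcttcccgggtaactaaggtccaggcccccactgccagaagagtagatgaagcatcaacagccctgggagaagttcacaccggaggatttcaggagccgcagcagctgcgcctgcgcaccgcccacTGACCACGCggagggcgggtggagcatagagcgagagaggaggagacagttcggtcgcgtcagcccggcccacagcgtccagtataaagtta
Nfe2l2 (chr2:75704614-75704913, minus strand): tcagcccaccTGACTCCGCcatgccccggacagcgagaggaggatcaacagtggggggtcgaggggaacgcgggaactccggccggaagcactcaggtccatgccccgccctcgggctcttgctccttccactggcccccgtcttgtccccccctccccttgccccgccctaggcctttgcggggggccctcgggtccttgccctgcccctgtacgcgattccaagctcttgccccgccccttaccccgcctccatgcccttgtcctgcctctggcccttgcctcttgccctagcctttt
Gsta2 (chr9:78347096-78347395, minus strand): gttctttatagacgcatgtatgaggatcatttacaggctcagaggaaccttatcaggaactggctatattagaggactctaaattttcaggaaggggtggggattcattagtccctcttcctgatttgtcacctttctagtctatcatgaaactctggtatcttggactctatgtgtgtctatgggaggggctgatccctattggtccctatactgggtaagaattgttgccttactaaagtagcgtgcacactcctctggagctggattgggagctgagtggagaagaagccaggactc
Gstm3 (chr3:107969125-107969424, minus strand): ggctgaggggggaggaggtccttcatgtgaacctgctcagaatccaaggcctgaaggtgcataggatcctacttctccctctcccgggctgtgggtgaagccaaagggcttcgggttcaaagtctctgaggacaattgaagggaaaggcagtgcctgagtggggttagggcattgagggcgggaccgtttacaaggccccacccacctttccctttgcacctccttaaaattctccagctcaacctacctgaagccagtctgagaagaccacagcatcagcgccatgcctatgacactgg
Nqo1 (chr8:107403156-107403455, minus strand): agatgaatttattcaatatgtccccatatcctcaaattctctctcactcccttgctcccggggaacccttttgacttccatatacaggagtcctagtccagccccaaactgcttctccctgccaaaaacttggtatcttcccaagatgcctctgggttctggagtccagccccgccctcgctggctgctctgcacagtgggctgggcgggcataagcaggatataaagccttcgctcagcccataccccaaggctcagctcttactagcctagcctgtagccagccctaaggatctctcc

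Some facts of the series bear on every value. Lamtor2 was lower on each KO array, averaging 10.13 ± 0.06 on KO arrays and 11.32 ± 0.03 on WT arrays (SD, n = 3 each), a KO signal at 43.8% of that in WT. Where its probes lie relative to the deleted part was not analysed here. KO 3 stood apart from its group: on the first principal component it lay at -2.58, with KO 1 and KO 2 at -30.39 and -22.27 and the WT arrays between 14.19 and 21.55. WT 2 carried skeletal muscle transcripts, with a summed level of 15.34 for a list of 10 muscle genes, against 5.85 to 5.90 on the KO arrays and 5.87 and 6.06 on WT 1 and WT 3. Hepatocyte markers, from albumin to transthyretin, were bright on all arrays, with summed levels of 18.84 to 18.91 in KO and 18.90 to 18.94 in WT. Pericentral hepatocyte markers summed to 16.93 to 17.07 in KO and 17.09 to 17.22 in WT, without overlap, and 0 of the 10 passed. Of 11 liver endothelial markers 9 had a lower KO mean, 6 without overlap, and Lyve1 passed, with a difference of -1.32 (limma adjusted p = 0.0353). The summed level of the 11 was 12.95 to 13.37 in KO and 13.22 to 13.41 in WT. All 12 Kupffer cell and macrophage markers had a lower KO mean, 8 without overlap, with a median of -0.89, and 0 passed. Their summed level was 13.35 to 14.30 in KO and 14.53 to 14.66 in WT. For comparison, 5848 of all 10009 genes had a lower KO mean, and 1400 were lower without overlap. The part of these marker levels in the GST differences was not tested. In whole liver, fewer cells of a type and less RNA per cell cannot be told apart.

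In single-gene tests 0 of the 43 members passed the test between KO and WT livers (limma, Benjamini-Hochberg adjusted p under 0.05 over all 10009 genes, of which 0.170% passed, 0.0200% as higher and 0.150% as lower). The lowest adjusted p was 0.167, for Sult5a1. At an unadjusted p under 0.05 there were 12 members, 5 higher and 7 lower in KO, where 14.5% of all genes had such a p, 4.32% higher and 10.1% lower. An ordinary test without the shared variance also passed 0 members, with 6 at an unadjusted p under 0.05. The KO and WT arrays did not overlap for 14 members, 7 higher and 7 lower in KO, or 32.6% beside 20.5% of all genes (6.54% higher, and 1400 of the 10009 genes lower). The median difference was -0.08 over the members and -0.04 over all genes. The descriptions that follow are of measured levels in these livers, and none of these differences was past the threshold with all 6 arrays.

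**Figure D1:**
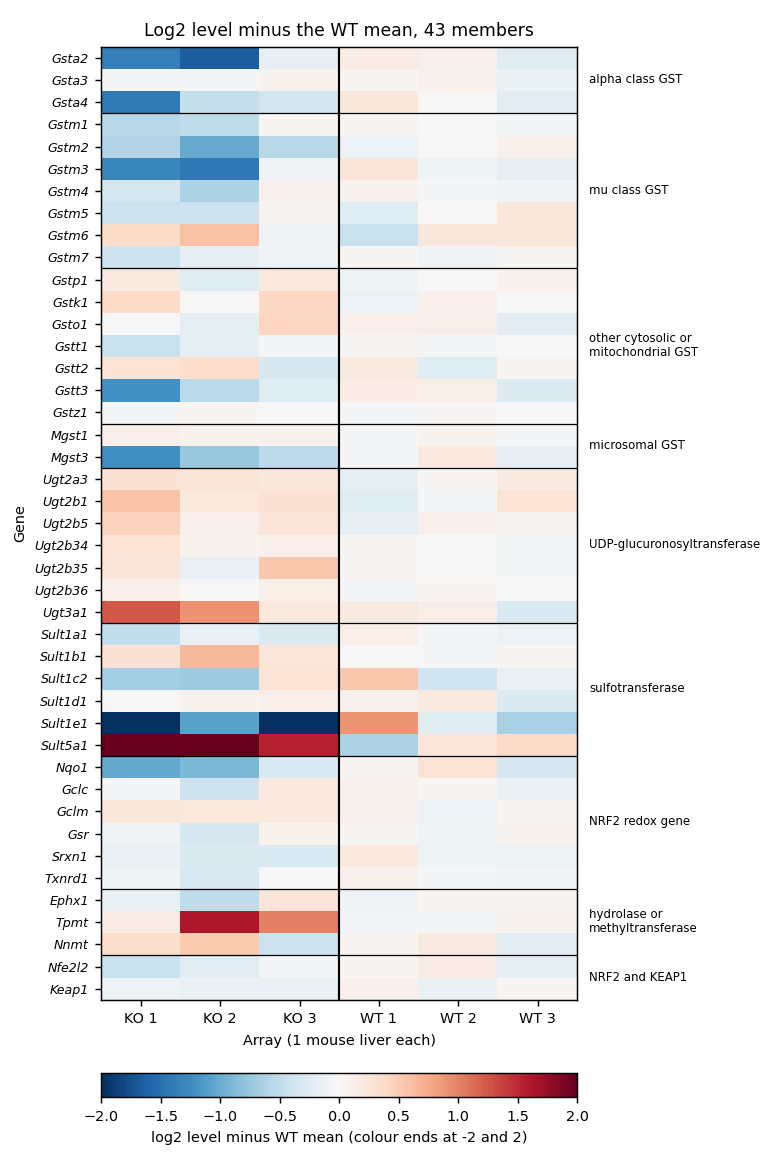
Log2 level of each of the 43 members on each array, minus the mean of the 3 WT arrays, with genes in rows by family and arrays in columns (KO 1 to KO 3 left of WT 1 to WT 3). Blue is below and red above the WT mean. Gsta2 and Gstm3 are blue on KO 1 and KO 2 and pale on KO 3, and Sult5a1 is red on all KO arrays.

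Among the GSTs the mu class had most members lower in KO. The 7 mu genes are consecutive protein-coding genes on chromosome 3 in the RefSeq table. In 6 of the 7 the KO mean was lower, with differences of -0.93 to -0.21, and in Gstm6 it was higher by 0.28. Of all 10009 genes 5848 had a lower KO mean. The mu genes are close paralogs that may share probes, so they are not separate observations. Leaving out WT 1 brought the Gstm6 difference to 0.057, leaving out KO 2 to 0.13 and leaving out KO 3 to 0.48. The 6 lower genes kept that sign in all 18 alternative settings. Only the settings of normalisation, probe-set averaging, array weights and left-out arrays could change a sign, since the others reuse the same difference.
Gstm2 measured 11.76, 11.33 and 11.78 on the KO arrays, against 12.22, 12.36 and 12.45 on the WT arrays. The groups did not overlap, and the KO signal was 60.8% of that in WT. Its difference was -0.72 with a 95% interval of -1.07 to -0.36 (limma adjusted p = 0.194).
Gstm3 was uneven between KO mice. It measured 12.44, 12.32 and 13.68 on the KO arrays, against 14.01, 13.66 and 13.58 on the WT arrays. KO 1 and KO 2 lay below every WT array and KO 3 lay inside the WT range. The difference was -0.93 with all arrays (limma adjusted p = 0.345) and -1.37 without KO 3 (limma adjusted p = 0.0428, and 0.0428 to 0.716 over the alternatives). A further Gstm3 probe set gave 9.62, 9.51 and 10.84 in KO and 11.32, 10.91 and 10.86 in WT, with KO 3 just below the WT range. Gstm1 had the same layout at a smaller size, at 14.54, 14.58 and 15.12 in KO and 15.14, 15.08 and 15.05 in WT. Its difference without KO 3 was -0.53 (limma adjusted p = 0.0503, and 0.0503 to 0.755 over the alternatives), on the other side of the threshold from Gstm3. In the further Gstm1 probe sets KO 3 lay just above the WT range. In the brightest of them it measured 15.13, against 15.10 on WT 1, the highest WT array, and the difference was -0.39. The rule for naming genes did not pick Gstm3 and Gstm1, which were chosen once their values had been seen. The probe sets used for both carry a suffix by which the manufacturer marks probes that can match several transcripts, so their signals may mix paralogs.
Gstm7 differed by -0.21, with arrays that did not overlap, while Gstm4 and Gstm5 differed by -0.30 and -0.26 with overlapping arrays. Gstm4 differed by -0.14 without KO 2 and by -0.48 without KO 3, and Gstm5 by -0.14 without WT 3 and by -0.42 without KO 3.

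The alpha class held 3 members with different layouts. Gsta4, which conjugates the lipid peroxidation product hydroxynonenal, measured 10.89, 11.82 and 11.93 in KO and 12.52, 12.28 and 12.09 in WT. All KO arrays lay below all WT arrays, with KO 1 the lowest. The difference was -0.75 with an interval of -1.49 to -0.01 (limma adjusted p = 0.343), and -0.42 without KO 1. Gsta2 measured 11.88, 11.60 and 13.08 in KO and 13.39, 13.34 and 13.00 in WT. KO 1 and KO 2 were below the WT range and KO 3 within it, as for Gstm3. The Gsta2 difference was -1.06 with all arrays (limma adjusted p = 0.327) and -1.50 without KO 3 (limma adjusted p = 0.0415, and 0.0415 to 0.690 over the alternatives). This gene, too, was chosen after its values were seen. A probe set that the annotation pairs with Gsta1, Gsta2 and Gm3776 together differed by -1.19. Gsta3 differed by 0.001, with an interval of -0.20 to 0.21, and its KO and WT arrays overlapped.

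Mgst3, a membrane-bound enzyme with glutathione transferase and peroxidase activity, measured 9.14, 9.61 and 9.84 in KO and 10.34, 10.56 and 10.20 in WT. Again the groups did not overlap and KO 1 was the lowest. The KO signal was 55.9% of that in WT, a difference of -0.84 with an interval of -1.34 to -0.34 (limma adjusted p = 0.226). Mgst1, the other microsomal member, differed by 0.08 (interval -0.07 to 0.23). The 7 remaining GSTs differed by -0.66 to 0.27, and the KO and WT arrays overlapped in all 7. Gstt3 was at the low end of that range, and differed by -0.38 without KO 1. Gstp1 of the pi class, Gsto1 of the omega class and Gstz1, an enzyme of tyrosine breakdown, differed by 0.05, 0.07 and -0.005. For Gstz1 the interval was narrow, at -0.15 to 0.14.

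UGT transcripts leaned the other way. All 7 UGT members had a higher KO mean, by 0.07 to 0.78, where 4161 of all 10009 genes did. All 7 kept that sign in the 18 alternative settings, of which those of filter, floor and variance model could not change it. In 3 of the 7 the arrays did not overlap, all higher in KO, beside 6.54% of all genes. The 6 Ugt2 genes lie close together on chromosome 5 and are close paralogs that may share probes, so they are not separate observations.
Ugt3a1, whose human counterpart uses N-acetylglucosamine as sugar donor, measured 10.84, 10.49 and 9.80 in KO and 9.77, 9.72 and 9.28 in WT. KO 1 and KO 2 were well above the WT range, and KO 3 was just above WT 1. The difference was 0.78, or 1.72-fold, with an interval of 0.06 to 1.50 (limma adjusted p = 0.327). A further Ugt3a1 probe set differed by 0.81. Among the Ugt2 genes, which act on steroids, bile acids and drugs, the differences ran from 0.07 for Ugt2b36 to 0.36 for Ugt2b1. Ugt2a3 and Ugt2b34 had arrays that did not overlap, at 0.26 and 0.15, and Ugt2a3 differed by 0.16 without WT 1. Ugt2b5 differed by 0.27, and by 0.17 without KO 1.

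**Figure D2:**
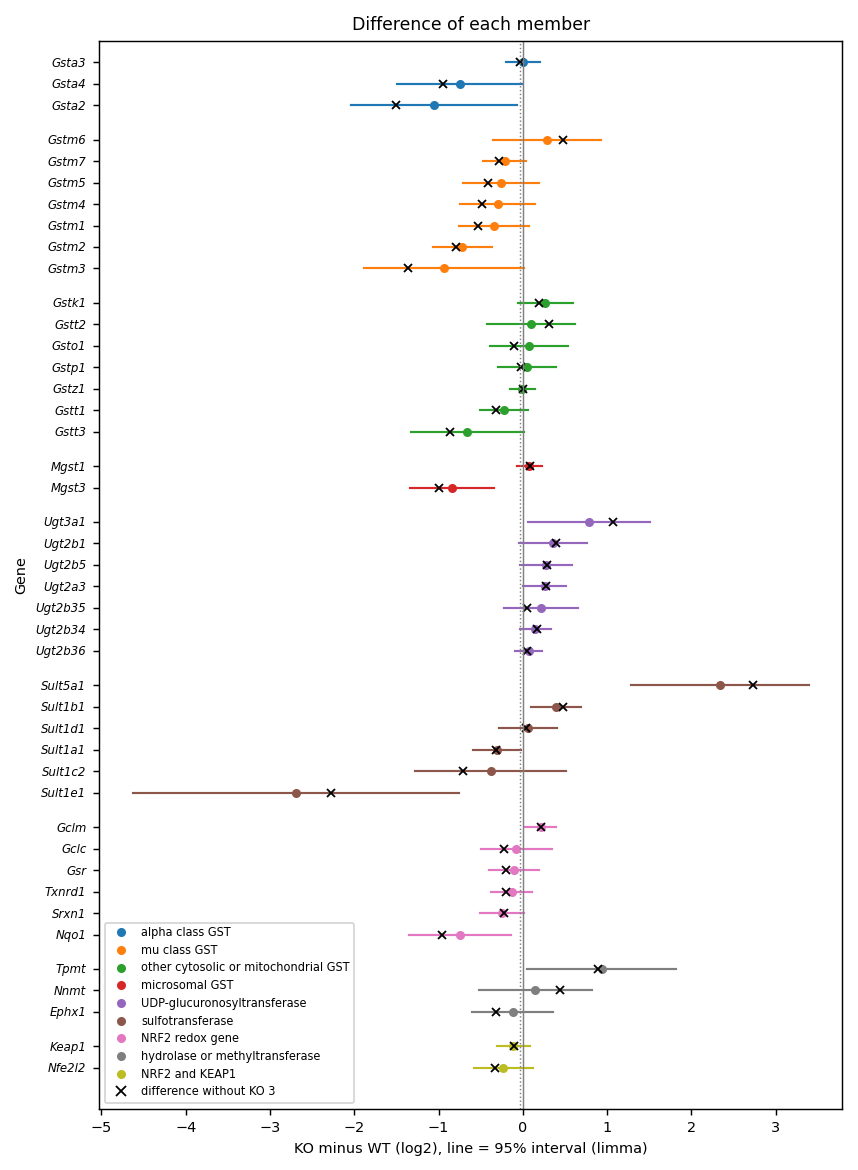
KO minus WT difference of each member in log2 units (points) with its 95% interval from limma (lines), by family, and the difference without KO 3 (crosses). The dotted line is the median of all 10009 genes at -0.04. All 7 UGT points lie right of 0, 6 of 7 mu class points lie left of it, and Sult1e1 and Sult5a1 mark the ends of the range.

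The SULTs held the members with the differences furthest from 0 in both directions. Sult5a1 measured 8.92, 8.82 and 7.68 in KO and 5.52, 6.38 and 6.53 in WT. All KO arrays were above all WT arrays. KO livers had 5.05-fold the WT signal, a difference of 2.34 with an interval of 1.28 to 3.39 (limma adjusted p = 0.167). Without KO 3 the difference was 2.73 (limma adjusted p = 0.0471). Over the 18 alternative settings its adjusted p was 0.0471 to 0.456.
Sult1e1, the estrogen sulfotransferase, measured 5.18, 7.60 and 5.14 in KO and 9.55, 8.43 and 8.02 in WT. The groups did not overlap, but KO 2 lay near the lowest WT array and the other 2 KO arrays far below. The KO arrays averaged 5.97 ± 1.41 and the WT arrays 8.66 ± 0.79 (SD, n = 3 each), which puts the KO signal at 15.5% of that in WT. The interval of the difference of -2.69 was wide, at -4.63 to -0.76 (limma adjusted p = 0.27). Here KO 3 was as low as KO 1, unlike in Gsta2 and Gstm3.
Sult1b1, which sulfates thyroid hormones, measured 9.51, 9.84 and 9.43 in KO and 9.20, 9.16 and 9.24 in WT. Every KO array was above every WT array, and the difference was 0.40 (limma adjusted p = 0.282). Sult1a1, the main phenol sulfotransferase, measured 14.07, 14.41 and 14.27 in KO and 14.69, 14.53 and 14.44 in WT. It was lower on each KO array, though WT 3 and KO 2 lay close together, and the difference was -0.31 (limma adjusted p = 0.327). Sult1d1 and Sult1c2 differed by 0.06 and -0.38 with overlapping arrays. With 1 array left out Sult1c2 differed by -0.11 without WT 1, -0.21 without KO 2 and -0.23 without KO 1, against -0.58 without WT 2 and -0.71 without KO 3.
Sult1b1, Sult1d1 and Sult1e1 are consecutive genes on chromosome 5, and their differences were 0.40, 0.06 and -2.69. Of the sex-biased liver genes 0 passed the threshold. Of 15 listed male-biased genes 13 had a probe set and 9 were past the filter, and of 20 female-biased genes 14 and 13. All 9 male-biased genes past the filter had a higher KO mean, with a median of 1.29. Of the 13 female-biased genes past it, 11 had a lower KO mean, with a median of -0.73. Of all 10009 genes 4161 were higher and 5848 lower. The summed male-biased level was 15.48 to 16.60 in KO and 13.69 to 15.54 in WT. The summed female-biased level was 14.29 to 16.03 in KO and 15.98 to 16.51 in WT, so that the sums overlapped in both lists. Taken singly, 6 of the 9 male-biased genes had arrays without overlap, all higher in KO, beside 6.54% of all genes. Of the 13 female-biased genes 3 did, all lower, beside 1400 of the 10009 genes. Cyp4a12a, among the 6 and the 9, measured 11.29, 7.63 and 4.47 in KO and 2.18, 2.18 and 2.56 in WT. It was past the filter through its KO arrays alone, so its higher KO level without overlap was fixed in advance. Slco1a1, a male-biased gene named after its values were seen, measured 12.32, 11.65 and 12.33 in KO and 2.29, 2.29 and 7.53 in WT. Its difference of 8.06 was the highest of all 10009 genes (limma adjusted p = 0.167). The part of the sex-biased genes in the SULT differences was not tested, and the stated sex was not checked against these levels.

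**Figure D3:**
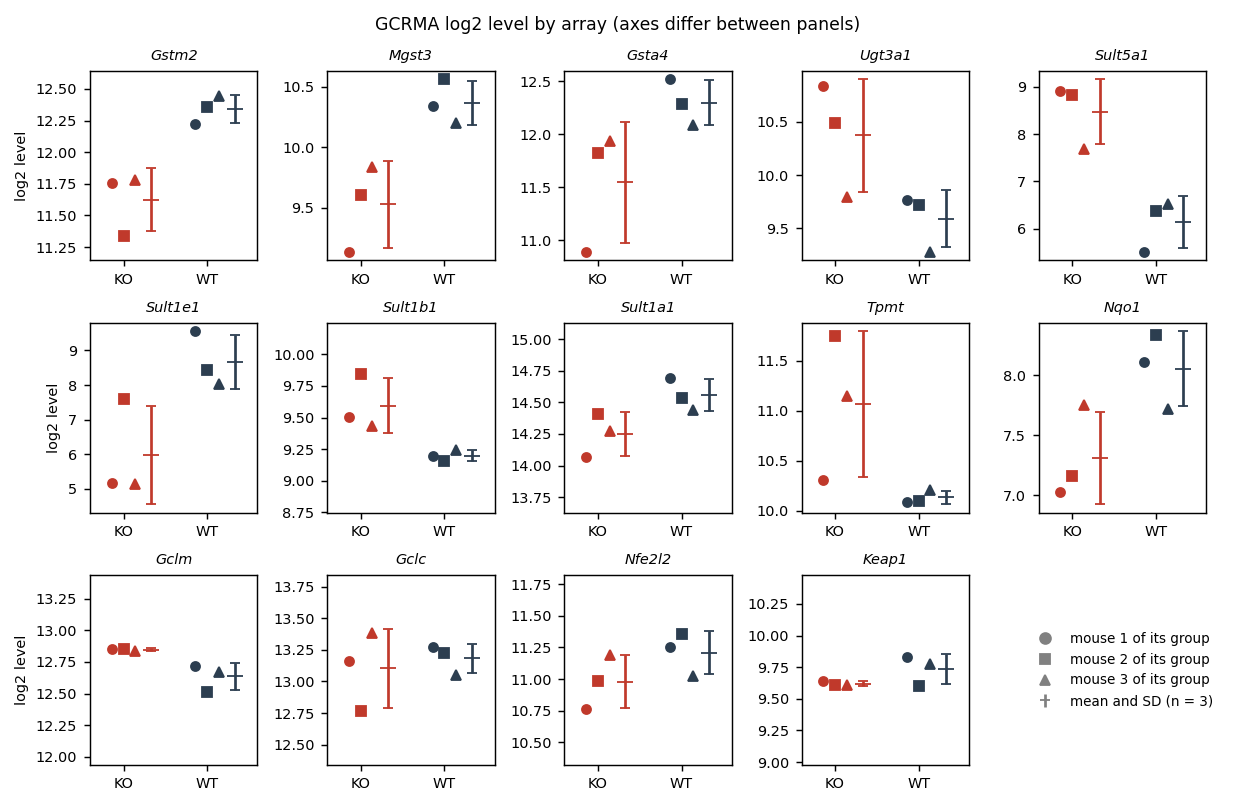
GCRMA log2 level on each array for 14 members, with KO left of WT in each panel, a symbol for each mouse and the mean ± SD (n = 3) beside them. Scales differ between panels. Sult5a1 and Sult1b1 lie above WT on all KO arrays, Gstm2 and Mgst3 below it, and Gclc, Nfe2l2, Keap1 and Nqo1 overlap.

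Of the 6 measured redox genes of the NRF2 pathway 5 had a lower KO mean, where 5848 of all 10009 genes did, and 1, Gclm, a higher one. Among the 5, Srxn1 and Txnrd1 turned higher when probe sets were averaged. Nqo1, the quinone reductase, measured 7.03, 7.15 and 7.75 in KO and 8.11, 8.33 and 7.72 in WT. KO 3 was just above WT 3, and KO 1 and KO 2 were below the WT range. The difference was -0.74 with an interval of -1.35 to -0.14 (limma adjusted p = 0.296). Gclm, the regulatory subunit of glutamate-cysteine ligase, measured 12.85, 12.85 and 12.83 in KO and 12.72, 12.52 and 12.67 in WT. It was higher on each KO array, by a mean of 0.21 or 1.16-fold (limma adjusted p = 0.306), and its other probe set differed by 0.28. Gclc, the catalytic subunit of the same enzyme, measured 13.16, 12.77 and 13.38 in KO and 13.27, 13.22 and 13.05 in WT. Its KO arrays lay on both sides of the WT range, and the interval of its difference of -0.08 was -0.50 to 0.34 (limma adjusted p = 0.834).
Srxn1, which repairs overoxidised peroxiredoxins, differed by -0.25 with arrays that did not overlap, but the dimmest of its 3 further probe sets differed by 0.35. Txnrd1, thioredoxin reductase, differed by -0.13 in its bright probe set and by 0.39 in a dimmer one. Gsr, glutathione reductase, differed by -0.10. The promoter windows shown above hold the core motif for Gclm, Gstm5 and Nfe2l2, with differences of 0.21, -0.26 and -0.23. The other measured genes with the motif were Gsta3, Mgst1, Gstm7, Srxn1 and Txnrd1. Their differences were 0.001, 0.08, -0.21, -0.25 and -0.13.
Nfe2l2 measured 10.77, 10.99 and 11.19 in KO and 11.25, 11.35 and 11.02 in WT, with overlapping arrays and a difference of -0.23 (limma adjusted p = 0.476). A dimmer Nfe2l2 probe set differed by 0.05. Keap1 measured 9.64, 9.61 and 9.61 in KO and 9.83, 9.60 and 9.78 in WT. The KO arrays were tightly grouped inside the WT range, and the difference was -0.12, with an interval of -0.31 to 0.08 (limma adjusted p = 0.514). A dimmer Keap1 probe set differed by 0.13. NRF2 is controlled mainly through protein stability, which transcript levels do not measure.

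Of the remaining drug-metabolising enzymes, Tpmt, which methylates thiopurine drugs, measured 10.30, 11.75 and 11.14 in KO and 10.09, 10.10 and 10.21 in WT. All KO arrays were above all WT arrays, but KO 1 only by a small step. The KO arrays averaged 11.06 ± 0.73 and the WT arrays 10.13 ± 0.07 (SD, n = 3 each), a difference of 0.93 or 1.91-fold with an interval of 0.05 to 1.81 (limma adjusted p = 0.333). The difference was 0.59 without KO 2. Its 3 further probe sets differed by 0.54 to 0.78, but the groups overlapped in 2 of them. One of these measured 8.40, 9.74 and 9.28 in KO and 8.56, 8.53 and 8.70 in WT, and the other 8.78, 9.69 and 9.39 in KO and 8.73, 8.61 and 8.83 in WT, with KO 1 inside or below the WT range. In Tpmt the highest KO array was KO 2, whereas in Sult5a1 and Ugt3a1 it was KO 1. Ephx1, the microsomal epoxide hydrolase, and Nnmt, which methylates nicotinamide, differed by -0.12 and 0.15 with overlapping arrays.

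KO 3 lay with the WT arrays for some members and with the KO arrays for others. For 13 members the mean of KO 1 and KO 2 was at least 0.5 from the WT mean, 10 lower and 3 higher, a cut set after the values were seen. KO 3 was nearer the WT mean than the mean of KO 1 and KO 2 in 8 of the 13, or 61.5%, beside 60.3% of the 1234 genes past that cut on the whole array. It lay inside the WT range for 6 of the 10 lower members (Gsta2, Gstm1, Gstm3, Gstt3, Nqo1 and Sult1c2), beside 33.3% of the 889 lower genes. In Gstm1 and Gstm3 this held only for the probe set used. KO 3 lay inside the WT range for 0 of the 3 higher members, beside 39.1% of the 345 higher genes. In either direction it lay there for 6 of the 13 (46.2%), beside 34.9% of all genes past the cut. Without KO 3, 3 of the 43 members passed in limma, Gsta2 and Gstm3 as lower and Sult5a1 as higher, beside 1.40% of all genes (0.260% higher and 1.14% lower). With each of the other 5 arrays left out in turn 0 members passed. The summed level of 8 acute-phase proteins, a list added after the data were seen, was 18.11, 18.04 and 16.82 on KO 1, KO 2 and KO 3, against 16.78 to 16.83 on the WT arrays. The macrophage level was 13.35, 13.52 and 14.30 on the same KO arrays, and the 18S rRNA controls measured 9.24, 9.11 and 8.50, against 7.77 to 8.44 in WT. The part of these measures in the GST and Nqo1 levels was not tested.

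Genes of the same pathways outside the 44 were looked up in 5 lists. Among 20 measured NRF2 targets, 0 passed, 16 had a lower and 4 a higher KO mean, and the median was -0.14. Of all 10009 genes 5848 had a lower KO mean. Sqstm1, the autophagy receptor p62, which binds KEAP1, measured 12.88, 12.85 and 12.98 in KO and 13.08, 13.23 and 13.11 in WT. Its groups did not overlap, with a difference of -0.23 (limma adjusted p = 0.287). Abcc4, an efflux pump, differed by -1.21 with overlapping arrays (limma adjusted p = 0.304). Among 13 NRF2 partners and regulators 0 passed and the median was -0.02. Map1lc3b, an autophagy protein, differed by 0.31 and Ep300, a coactivator, by -0.28, both with arrays that did not overlap (limma adjusted p = 0.25 and 0.317).
Of 17 measured genes of cofactor supply 0 passed, and the median was -0.14. The KO mean was lower in 12 and higher in 5, where 5848 of all 10009 genes were lower. Ugdh, Gss, Pgd and Me1 are in both this list and that of the NRF2 targets, so the 2 counts are not separate. Cbs, which feeds homocysteine towards cysteine and so towards glutathione, measured 11.79, 12.13 and 12.17 in KO and 12.47, 12.52 and 12.50 in WT. All KO arrays were below the WT arrays, and the difference was -0.47 (limma adjusted p = 0.231). Slc35d1, a carrier of UDP-glucuronic acid into the endoplasmic reticulum, was higher on each KO array by a mean of 0.29 (limma adjusted p = 0.289). Ggct, an enzyme of glutathione breakdown named after its values were seen, had the difference furthest from 0 in this list. It measured 7.36, 7.88 and 8.48 in KO and 8.91, 8.60 and 8.94 in WT, with no overlap and a difference of -0.91 (limma adjusted p = 0.29).

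**Figure D4:**
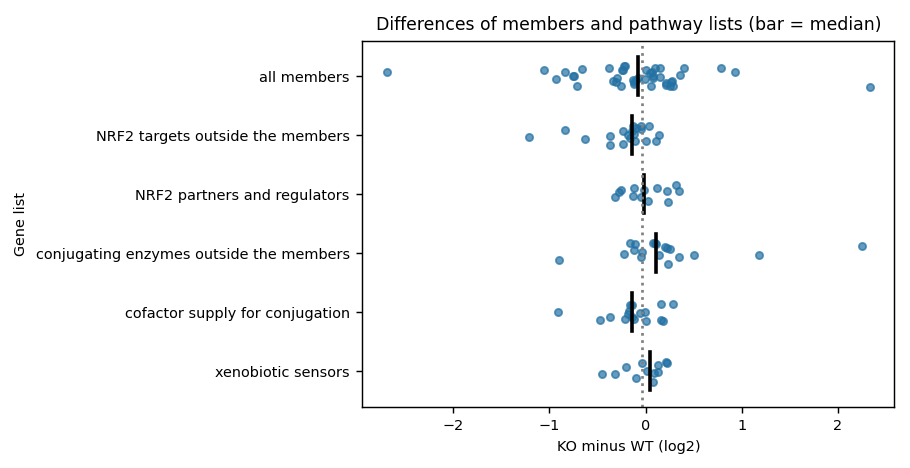
KO minus WT difference in log2 units of each measured gene in the 43 members and in the 5 pathway lists outside them, 1 point per gene, with the list median as a bar. The dotted line is the median of all 10009 genes. Medians lie between -0.14 and 0.11, and no point is a gene past the threshold.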

How the data were processed

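Livers of 6 mice were profiled on Affymetrix arrays. The deposited log2 values per probe set come from GCRMA 2.16.0 in R 2.9.1, which the submitters' processing notes name as the authors' tools, and further settings are not given in the sources used here. GCRMA subtracts a sequence-based background, normalises across arrays and summarises probes. The log2 scale was inferred from the values, of which 28.9% lay at the lowest value. The number of arrays limits the precision, and no scan dates were analysed here.

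Platform annotation named the genes, and each was read from its brightest probe set by mean level. The KO and WT groups were tested with lmFit and eBayes of limma 3.58.1 (R 4.3.3, no covariates, two-sided), with Benjamini-Hochberg adjustment over 10009 genes, and a gene passed at an adjusted p under 0.05. The test was checked on simulated data. Summed marker levels are log2 of the sum of linear signals. Alternatives covered filter, floor, normalisation, probe sets, variance model, array weights, a replicate block and left-out arrays.

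The members, lists and tests were chosen with earlier results of these data known. Every array's value is given for members that passed, that had arrays without overlap and an unadjusted p under 0.05, and for Nfe2l2, Keap1, Nqo1, Gclc and Gclm. Pathway lists give passing genes or the 2 with the smallest p. Figures were drawn with matplotlib 3.10.9.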

Additional observations from a re-analysis of the deposited data

How the results depend on the processing

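With 18 alternative settings 0 of the 43 members passed in limma, except for 3 without KO 3, so the range over left-out arrays was 0 to 3. Signs held in every alternative for 29 members, though settings of filter, floor, variance model and replicate block leave the members' differences unchanged. The number of genes passing over the whole array was 17. It was 3 with no filter, 10 with log2 of at least 6 required, 3 with an ordinary two-sample test, 3 when KO 3 and WT 2 were dropped, and 1 to 140 with 1 array left out. The count was 1 without KO 2, WT 1 or WT 2, 6 without KO 1, 5 without WT 3 and 140 without KO 3. The median of the members was 0.0088 when the probe sets of each gene were averaged and -0.18 when KO 3 and WT 2 were dropped together. With probe sets averaged the difference was -0.063 for Mgst1, 0.0098 for Srxn1, 0.20 for Txnrd1 and 0.0088 for Keap1, each opposite in sign to that of the brightest probe set. Gstz1 differed by 0.062 with median centring and Gsta3 by -0.013 with array weights. When KO 3 and WT 2 were dropped, Gstp1 differed by -0.032, Gsto1 by -0.047 and Gstz1 by 0.011. With 1 array left out, the difference crossed 0 for Gsta3 (-0.064 to 0.045), Gstp1 (-0.027 to 0.19), Gsto1 (-0.10 to 0.21), Gstt2 (-0.027 to 0.31), Gstz1 (-0.026 to 0.016), Sult1d1 (-0.084 to 0.16), Gclc (-0.22 to 0.089), Gsr (-0.20 to 0.0075), Ephx1 (-0.32 to 0.067) and Nnmt (-0.037 to 0.44). The cause of these changes was not tested. The replicate numbers were not treated as pairs. Same-numbered arrays correlated at -0.0856, -0.0789 and -0.141 in their deviations from the group means. With 3 arrays in each group these values cannot settle whether a pairing exists. With the replicate number as a block 0 genes passed in limma, with 9 members at an unadjusted p under 0.05 and 0 past the threshold. Median centring moved the median of all genes from -0.04 to 0.03.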

Other observations

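Conjugating enzymes outside the members and the receptors that sense foreign compounds add to the picture. Among 19 further conjugating enzymes with measured levels 0 passed in limma, with 4 at an unadjusted p under 0.05. The KO mean was higher in 12 and lower in 7, with a median of 0.11, where 4161 of all 10009 genes were higher. Nat8, an acetyltransferase of cysteine conjugates, measured 6.87, 6.74 and 5.44 in KO and 4.87, 5.20 and 5.44 in WT. KO 3 and WT 3 were alike, and the difference was 1.18 (limma adjusted p = 0.305). Without KO 3 it was the 1 gene of this list that passed in limma, at an adjusted p of 0.0428. Gnmt, which uses up S-adenosylmethionine by methylating glycine, was lower on each KO array, with a difference of -0.16 (limma adjusted p = 0.317). Sult3a1, a sulfotransferase chosen after its values were seen, had 8.79, 8.51 and 5.09 in KO and 2.18, 4.71 and 8.74 in WT. Levels within each group ranged as widely as between them, so that its difference of 2.25 had an interval of -2.40 to 6.90.

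Of 12 measured sensors and liver factors 0 passed in limma, 2 had an unadjusted p under 0.05, and the median was 0.04. Cebpa, a hepatocyte transcription factor, measured 12.83, 12.82 and 12.83 in KO and 13.25, 12.95 and 13.22 in WT, with no overlap and a difference of -0.32 (limma adjusted p = 0.283). Nr3c1, the glucocorticoid receptor, differed by 0.22 with overlapping arrays (limma adjusted p = 0.338).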
